A study of Homo sapiens with 16 samples.

Results

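The Toll-like receptor (TLR) genes TLR1 to TLR10 were examined for H3K27ac, the acetylation of histone H3 that marks active promoters and enhancers. The cells were THP-1, a human monocytic leukemia line. A region was included when the deposited table assigned it to 1 of these 10 genes by the nearest transcription start site (TSS) and placed its centre within 50000 bp of that site. This rule selected 67 regions of 151654, each a 1000 bp window laid over a site of open chromatin. Of these, 21 lay within 3000 bp of the TSS and 46 farther away, and 25 windows overlapped another of the 67 and so shared tags with it. Each region is named here by its gene and by the distance of its centre from the TSS in bp, with negative numbers upstream.

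The study asked how loss of USP18, a negative regulator of type I interferon signalling, changes the chromatin response to IFNα. WT cells carried Cas9 alone and USP18−/− cells carried a CRISPR deletion of USP18, and per the study's methods knockout lines were grown from sorted single cells, so that clone and genotype cannot be told apart. Cells of either genotype were left untreated or received IFNα at 1000 U/ml for 6 h, giving 4 groups of 2 H3K27ac libraries. The study calls the libraries of a group biological replicates and independent samples. The labels do not name separate cultures, and p-values measure the spread between these libraries. The input libraries were not analysed here. A change in a bulk signal such as this one can come from more cells with the mark or more of the mark per cell, and these cannot be told apart.

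Toll-like receptors are pattern recognition receptors that bind molecules of microbes or damaged cells and signal through the adaptors MYD88 or TICAM1 to NF-κB and IRF transcription factors. TLR1, TLR2, TLR4, TLR5, TLR6 and TLR10 sit at the cell surface, where they bind lipoproteins, lipopolysaccharide or flagellin. TLR3, TLR7, TLR8 and TLR9 sit in endosomes and bind nucleic acids. Monocytes express several of them, and interferon is known to raise the expression of some, TLR7 among them.

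The 8 libraries held 9046141 to 12935453.5 tags in the table, and values are given as CPM, the counts per library size after TMM scaling. Promoter regions were present for 8 of 8 monocytic marker genes, at 1.53 to 129 CPM, with CSF1R the lowest, and for 0 of 6 genes of other lineages. At the USP18 promoter, which H3K27ac does not test for the deletion, IFNα-treated libraries stood at 17.8 and 14.8 CPM in WT cells and 48.4 and 41.1 CPM in USP18−/− cells, against 7.52 to 8.35 CPM in the 4 untreated libraries.

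The sequences at the centre of 2 regions are shown first, because they had the largest effects of IFNα in USP18−/− cells among the tested regions of TLR7. TLR7 −22989 (chrX:12843944-12844243, intergenic) and TLR7 +1804 (chrX:12868737-12869036, intron 2 of TLR7) both rose under IFNα. Both were read from hg38, plus strand, 300 bases each, and capitals mark GAAA or its complement TTTC, the core letters of interferon response elements.
TLR7 −22989: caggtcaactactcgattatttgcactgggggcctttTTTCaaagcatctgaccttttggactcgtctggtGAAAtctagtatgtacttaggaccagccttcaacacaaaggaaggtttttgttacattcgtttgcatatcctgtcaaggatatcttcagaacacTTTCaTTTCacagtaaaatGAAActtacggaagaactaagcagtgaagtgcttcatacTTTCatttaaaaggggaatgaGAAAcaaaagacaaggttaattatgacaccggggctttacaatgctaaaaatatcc
TLR7 +1804: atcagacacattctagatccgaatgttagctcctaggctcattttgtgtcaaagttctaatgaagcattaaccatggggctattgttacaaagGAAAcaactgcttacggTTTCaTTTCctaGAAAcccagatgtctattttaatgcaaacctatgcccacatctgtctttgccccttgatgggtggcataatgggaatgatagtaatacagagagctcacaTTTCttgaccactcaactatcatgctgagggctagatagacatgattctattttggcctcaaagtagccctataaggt
The TLR7 −22989 stretch held 7 such groups of letters, a number reached by 14.3% of all windows, and TLR7 +1804 held 5, against a median of 5 over the 67 regions and 4 over all windows.

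Neither TLR7 stretch holds the letters of the interferon-stimulated response element (ISRE), GAAA on both sides of 2 bases of any kind, on either strand. Both hold GAAATGAAA on the minus strand, a match to GAAANGAAA centred 19 bp to the right of the middle of the TLR7 −22989 window and at −36 in the TLR7 +1804 window. GAAANGAAA was searched for after these sequences had been seen, and it was present in 15.6% of all windows and in 9 of the 67. The next lines show, in capitals with 10 bases on each side, the ISRE match nearest the TSS for each of the 6 genes that had one, read 5′ to 3′ on the strand of the match.
TLR1 −888, chr4:38805843-38805872, plus strand: gatattttctGAAACTGAAAgaatgaaacc
TLR3 −960, chr4:186068356-186068385, minus strand: gagaaattagGAAAACGAAAcctagggagg
TLR5 −45627, chr1:223188708-223188737, plus strand: gaggatgaagGAAAAAGAAAagacaaagag
TLR8 −15945, chrX:12890535-12890564, plus strand: aagaggaaggGAAACTGAAAataatgcaac
TLR9 +5570, chr3:52220470-52220499, plus strand: cctgtaggtgGAAAGAGAAAggagtggatt
TLR10 +23291, chr4:38759849-38759878, plus strand: attatctttaGAAATAGAAAcacaaaactt
They are shown because regions with a match to this pattern did not all change alike under IFNα in USP18−/− cells, as given below. TLR3 −960 was untested. A match is a description of the letters and not a binding site.

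H3K27ac at the region nearest the TSS set the 10 genes apart by level. These windows are not all alike, since those of TLR3, TLR6 and TLR7 held no start site in the GENCODE annotation. The TLR6 window lies upstream of a start site that TLR1 shares there. Over the 8 libraries, the region nearest the TSS of TLR6, which pairs with TLR2, was the highest at 36.4 to 47.8 CPM, followed by that of TLR2, the receptor for bacterial lipoproteins, at 18.7 to 26.4 CPM. The nearest regions of TLR4, TLR5, TLR9 and TLR1 ranged from 1.66 to 8.40 CPM and overlapped one another. TLR7 −1576 ranged from 1.53 to 10.1 CPM, and TLR10 −38 and TLR8 −27 stayed between 0.405 and 1.92 CPM. TLR3, the receptor for double-stranded RNA, was the lowest of the 10, with no value above 1.17 CPM or 11.5 tags in any of its 6 regions.

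**Figure D1:**
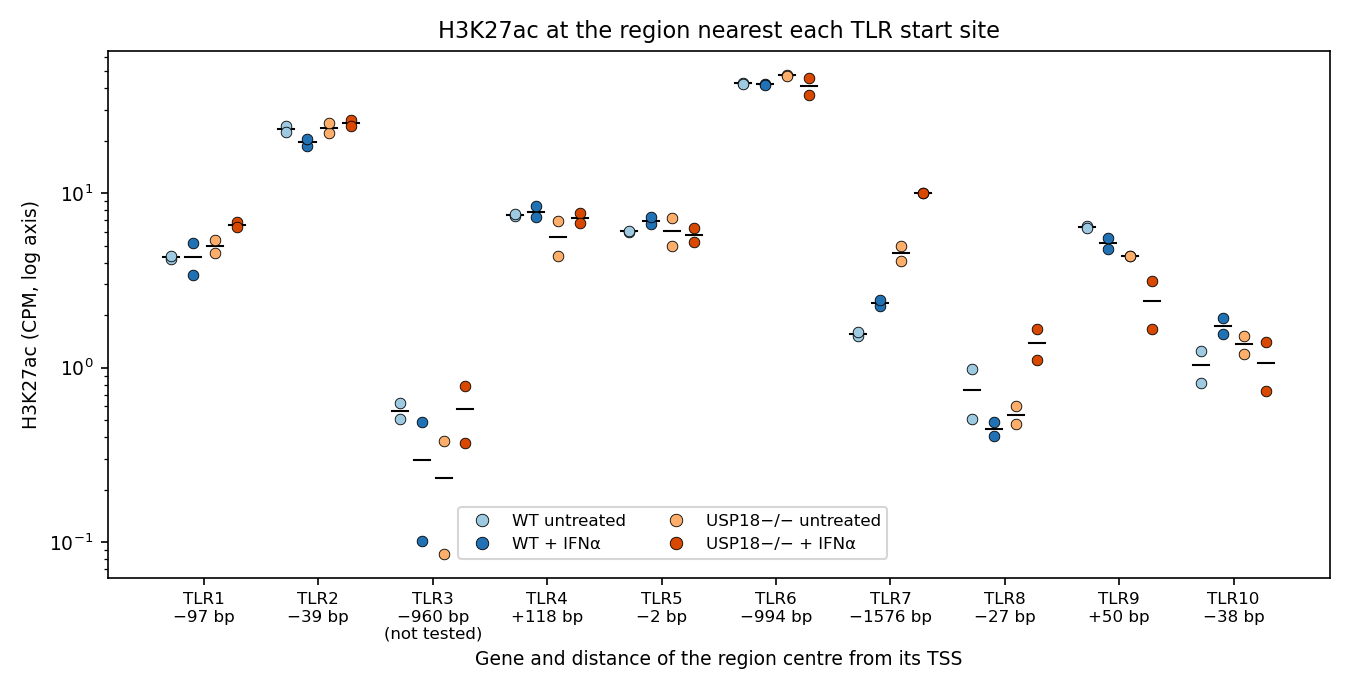
H3K27ac in CPM (log axis) at the region nearest the TSS of each TLR gene, with 1 point per library, colours for the 4 groups and bars at group means. TLR6 and TLR2 sit highest at 18.7 to 47.8 CPM, TLR3 lies below 1 CPM in all 8 libraries, and TLR7 climbs from 1.53 and 1.61 CPM in untreated WT cells to 9.97 and 10.1 CPM in IFNα-treated USP18−/− cells.

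A test was possible for 57 of the 67 regions, those where 2 or more of the 8 libraries reached 10 counts. The 10 untested regions were all 6 of TLR3, 2 of TLR7, 1 of TLR5 and 1 of TLR8, with at most 11.5 tags in any library. The tested regions had a median level of 4.19 CPM, against 2.20 CPM over all 123276 tested regions. Comparisons used the quasi-likelihood test of edgeR, with p-values adjusted by the Benjamini-Hochberg method across all of these, and a region was called when it changed more than 2-fold at an adjusted p under 0.05. SE is the standard error of a log2 fold change, worked back from the test as its size over the square root of the F statistic. Differences are given on the log2 scale as USP18−/− minus WT or IFNα minus untreated.

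IFNα moved almost none of the TLR regions in WT cells. Of the 57, 1 was called higher, TLR7 −22989, where 0.342% of all tested regions were called higher, and 0 were called lower, where the background was 0.0389%. At an adjusted p under 0.05 and any size the numbers were the same, against 0.652% and 0.155% of all tested regions. At an unadjusted p under 0.05 there were 6 regions, 10.5% of the 57, against 8.98% of all tested regions. The median log2 fold change was 0.05, against −0.01 over all tested regions. DESeq2 called the same number, 1 higher and 0 lower.

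In USP18−/− cells, IFNα raised 5 regions, 3 of TLR7 and 1 each of TLR8 and TLR10, and lowered 3, 1 of TLR4 and 2 of TLR5. The background was 7.12% called higher and 4.3% called lower, and the shares of the 57 lay near those of all regions. Scaled by the plain sum of counts instead of TMM, the split was 5 higher and 5 lower. That scaling moved the median of all tested regions to −0.14 here, and to −0.16 and −0.27 for USP18 loss in untreated and IFNα-treated cells. At an adjusted p under 0.05 and any size, 13 were higher and 6 lower, against 13% and 11.2% of all regions.

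The IFNα effect differed between the genotypes by more than 2-fold in 3 regions. In USP18−/− cells the effect was larger at TLR7 +1804 and smaller at TLR4 +21597 and TLR5 −34664. Larger and smaller refer here and below to the signed log2 value, so smaller means more negative. At the last 2 regions IFNα gave a stronger fall in USP18−/− cells (−1.22 and −1.21) than in WT cells (−0.17 and −0.18). The background was 4.66% larger and 2.51% smaller. At any size the adjusted p was under 0.05 for 2 larger and 2 smaller effects, against 6.84% and 5.22% of all. DESeq2 called 0 larger and 1 smaller, and each of the 3 calls was lost when certain single libraries were left out, as given with each region.

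Without IFNα, USP18−/− cells had 3 regions called higher than WT cells, 2 of TLR7 and 1 of TLR10, and 2 called lower, 1 each of TLR2 and TLR4. The background was 5.67% higher and 10.8% lower. At any size 6 were higher and 9 lower at an adjusted p under 0.05, against 16.9% of all in either direction. The split was 3 higher and 5 lower when counts were scaled by their plain sum, and also 5 lower without USP18−/− untreated replicate 1.

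Under IFNα, 9 regions were called higher in USP18−/− than in WT cells, 4 of TLR7, 2 of TLR8 and 1 each of TLR2, TLR9 and TLR10. A further 8 were called lower, 3 of TLR5, 2 each of TLR2 and TLR9 and 1 of TLR4. The background was 11.3% higher and 13.4% lower. At any size 18 were higher and 11 lower at an adjusted p under 0.05, against 21.3% and 19.4% of all. With the plain sum of counts the split was 7 higher and 11 lower. The median over the 57 regions was −0.02, against 0.00 over all.

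**Figure D2:**
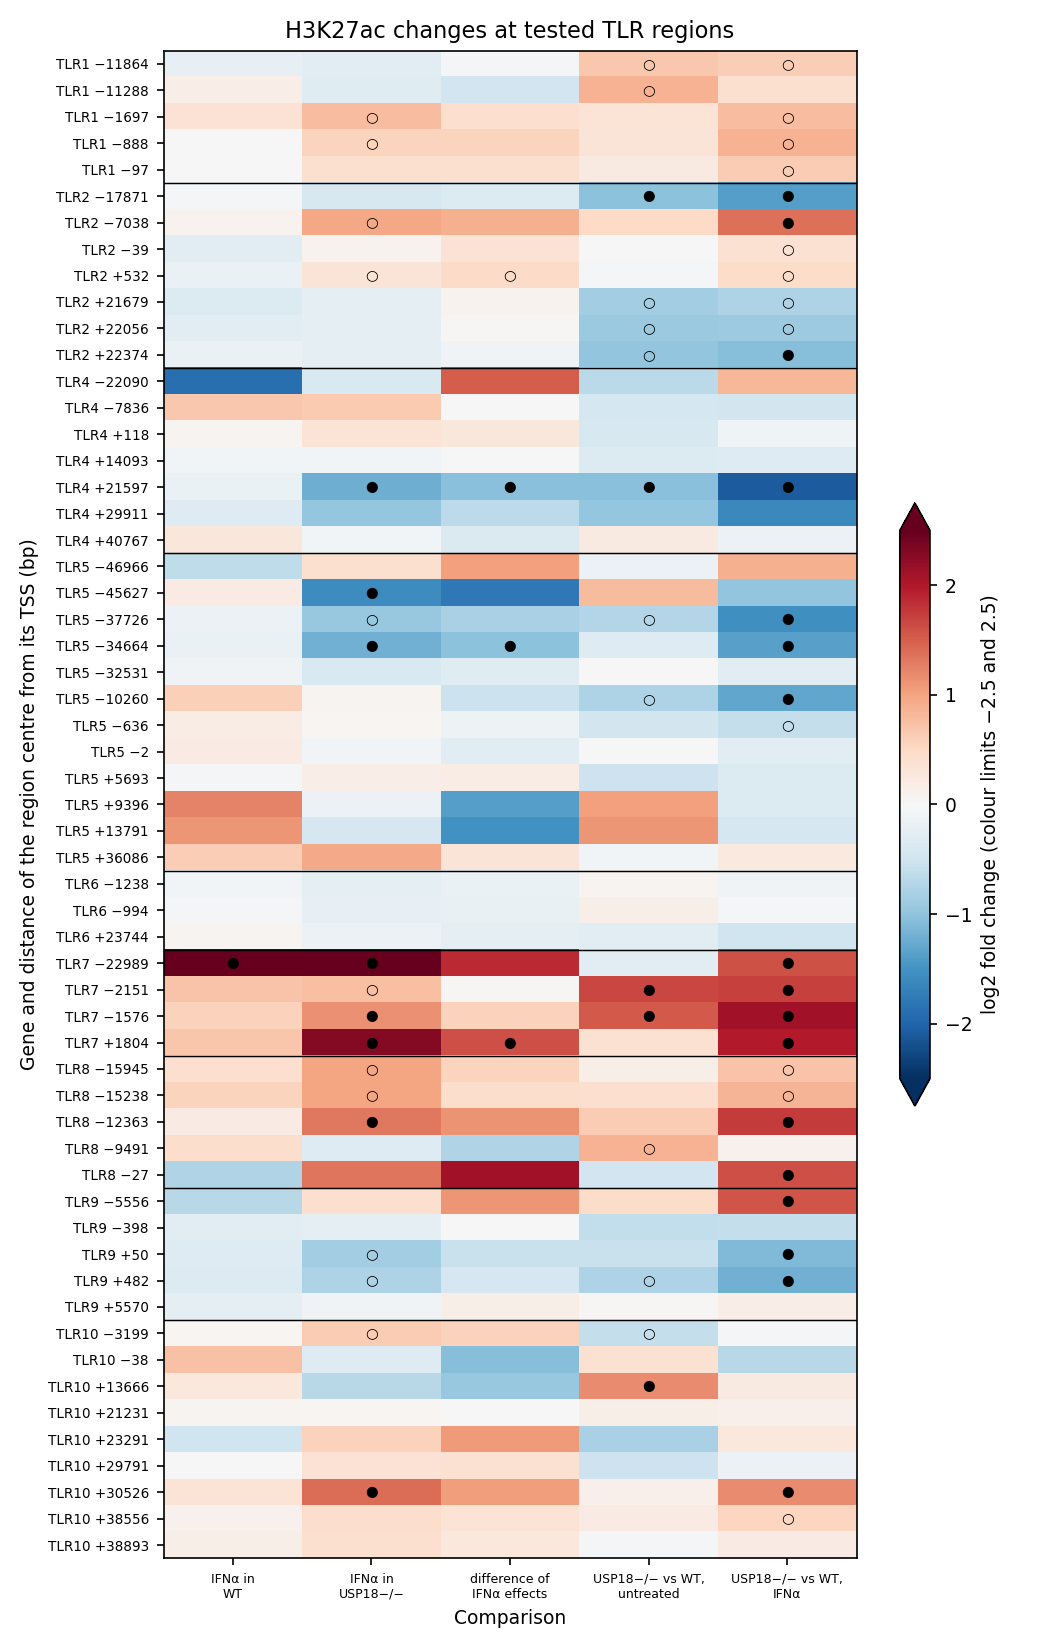
Log2 fold changes (colour) of the 57 tested TLR regions (rows, by gene and distance from the TSS) in the 5 comparisons (columns). Filled circles mark changes over 2-fold at an adjusted p under 0.05 and open circles smaller changes at that p. TLR7 holds filled circles in all 5 columns, TLR6 holds none, and TLR4 and TLR5 hold filled circles only on blue cells.

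TLR7, the endosomal receptor for single-stranded RNA, gained H3K27ac at 4 of its 6 regions, and 2 were untested. TLR7 −22989 (chrX:12843594-12844594), an intergenic region that no annotated gene overlaps, held 0.306 and 0.448 CPM in untreated WT cells, 3.32 and 4.05 CPM in IFNα-treated WT cells, 0.430 and 0.190 CPM in untreated USP18−/− cells and 11.9 and 10.4 CPM in IFNα-treated USP18−/− cells. Both IFNα-treated USP18−/− libraries lay above both IFNα-treated WT libraries, and these above all 4 untreated ones, among which the genotypes overlapped. The log2 fold change under IFNα was 3.23 ± 0.43 (SE, adjusted p = 4.86e-08) in WT cells and 5.09 ± 0.36 (SE, adjusted p = 2.92e-22) in USP18−/− cells.

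The untreated libraries of this region held only 2 to 4.5 tags each, so the size of the rise is known within a wide range. From pooled tags it was 10.2-fold (95% counting interval 4.65 to 23.2) in WT cells and 38.0-fold (95% counting interval 16.9 to 88.7) in USP18−/− cells, intervals that cover counting error alone. The 2 IFNα effects differed by 1.86 ± 0.79 (SE, adjusted p = 0.128), which did not pass the threshold. Under IFNα the genotypes differed by 1.60 ± 0.23 (SE, adjusted p = 4.57e-09), and in untreated cells by −0.26 ± 0.73 (SE, adjusted p = 0.830).

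The promoter-side regions of TLR7 followed another pattern, with a difference between the genotypes already present without IFNα. TLR7 −1576 (chrX:12865007-12866007) held 1.53 and 1.61 CPM in untreated WT cells, 2.25 and 2.43 CPM in IFNα-treated WT cells, 4.99 and 4.08 CPM in untreated USP18−/− cells and 9.97 and 10.1 CPM in IFNα-treated USP18−/− cells. No groups overlapped, and their order was untreated WT, IFNα-treated WT, untreated USP18−/− and IFNα-treated USP18−/−. The genotypes differed by 1.53 ± 0.30 (SE, adjusted p = 1.44e-05) in untreated cells and by 2.10 ± 0.24 (SE, adjusted p = 4.61e-12) under IFNα.

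At TLR7 −1576 IFNα gave 1.14 ± 0.21 (SE, adjusted p = 7.35e-06) in USP18−/− cells and 0.57 ± 0.34 (SE, adjusted p = 0.668) in WT cells, and the difference between these effects was 0.57 (95% interval −0.24 to 1.38, adjusted p = 0.469). TLR7 −2151, whose window overlaps it, rose by 1.67 ± 0.34 (SE, adjusted p = 3.13e-05) with USP18 loss in untreated cells. Both regions had levels that separated the genotypes in either condition.

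TLR7 +1804 (chrX:12868387-12869387) lies in intron 2 of the gene. Its levels were 1.53 and 1.07 CPM in untreated WT cells, 2.83 and 1.31 CPM in IFNα-treated WT cells, 0.947 and 2.47 CPM in untreated USP18−/− cells and 8.75 and 7.77 CPM in IFNα-treated USP18−/− cells. Both IFNα-treated USP18−/− libraries stood above the other 6, and the other 3 groups overlapped. IFNα raised it by 2.29 ± 0.29 (SE, adjusted p = 1.61e-10) in USP18−/− cells, where in WT cells the value was 0.69 ± 0.40 (SE, adjusted p = 0.639). The rise in USP18−/− cells was 1.71 without USP18−/− untreated replicate 1 and 3.11 without replicate 2 of that group, and was called either way.

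The difference between the IFNα effects at TLR7 +1804 was 1.60 ± 0.51 (SE, adjusted p = 0.0243), and it no longer passed without WT untreated replicate 1, WT IFNα replicate 2, USP18−/− untreated replicate 1 or USP18−/− IFNα replicate 1 (1.02 to 1.48, adjusted p of 0.0586 to 0.251) or with DESeq2 (adjusted p = 0.115). Summed over the 5 non-overlapping TLR7 regions, H3K27ac was 4.18 and 3.31 CPM in untreated WT cells and 9.28 and 8.09 CPM with IFNα, and 6.71 and 7.21 CPM in untreated USP18−/− cells and 31.2 and 29.0 CPM with IFNα. No groups overlapped in this sum.

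TLR8, which also binds single-stranded RNA, lies next to TLR7 on chromosome X, and its upstream regions begin at the 3′ end of TLR7. Under IFNα, TLR8 −12363 (chrX:12893757-12894757, intergenic) was higher in USP18−/− than in WT cells by 1.74 ± 0.40 (SE, adjusted p = 1.41e-04). The levels were 1.12 and 0.537 CPM in untreated WT cells, 0.781 and 1.11 CPM in IFNα-treated WT cells, 1.46 and 1.04 CPM in untreated USP18−/− cells and 3.85 and 2.5 CPM in IFNα-treated USP18−/− cells. Both IFNα-treated USP18−/− libraries were above the other 6, which overlapped.

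IFNα in USP18−/− cells changed TLR8 −12363 by 1.33 ± 0.37 (SE, adjusted p = 0.00314), which fell short without USP18−/− untreated replicate 2 (adjusted p = 0.0565) or USP18−/− IFNα replicate 1 (adjusted p = 0.168), and also with DESeq2 (adjusted p = 0.0754). TLR8 −15945 and TLR8 −15238, whose windows overlap and of which the first holds the ISRE letters shown above, rose by 0.98 ± 0.28 (SE, adjusted p = 0.00367) and 0.99 ± 0.28 (SE, adjusted p = 0.00441), just under 2-fold.

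The strongest TLR8 region by level, TLR8 −9491, did not follow them. It held 3.26 and 3.58 CPM in untreated WT cells, 3.61 and 5.66 CPM in IFNα-treated WT cells, 5.94 and 6.55 CPM in untreated USP18−/− cells and 5.33 and 4.63 CPM in IFNα-treated USP18−/− cells. The untreated USP18−/− libraries were the highest of the 8, and IFNα gave −0.32 (95% interval −0.76 to 0.12, adjusted p = 0.355) in USP18−/− cells. Near the start site, TLR8 −27 was low throughout at 0.405 to 1.66 CPM. Its call under IFNα, 1.61 ± 0.60 (SE, adjusted p = 0.0229), was lost with the plain sum of counts (adjusted p = 0.0651) or without WT IFNα replicate 1 or 2 or USP18−/− IFNα replicate 1 (adjusted p of 0.0718, 0.112 and 0.23).

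TLR7 +7696 and +15014 and TLR8 −4933 were untested and held at most 10 tags per library. The surroundings of TLR7 and TLR8 had positive medians as well, below the values of most tested regions of these genes. Over the 277 tested regions within 5 Mb, the median log2 fold change was 0.40 between the genotypes under IFNα, 0.12 between them in untreated cells and 0.10 for IFNα in USP18−/− cells. TLR8 −9491 lay below the median between the genotypes under IFNα, at 0.11, and below that for IFNα in USP18−/− cells, at −0.32. Between the genotypes in untreated cells, TLR7 −22989 and TLR8 −27 lay below the median, at −0.26 and −0.48. Whether a shared change of this stretch of the chromosome has a part in the values of TLR7 and TLR8 was not tested.

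**Figure D3:**
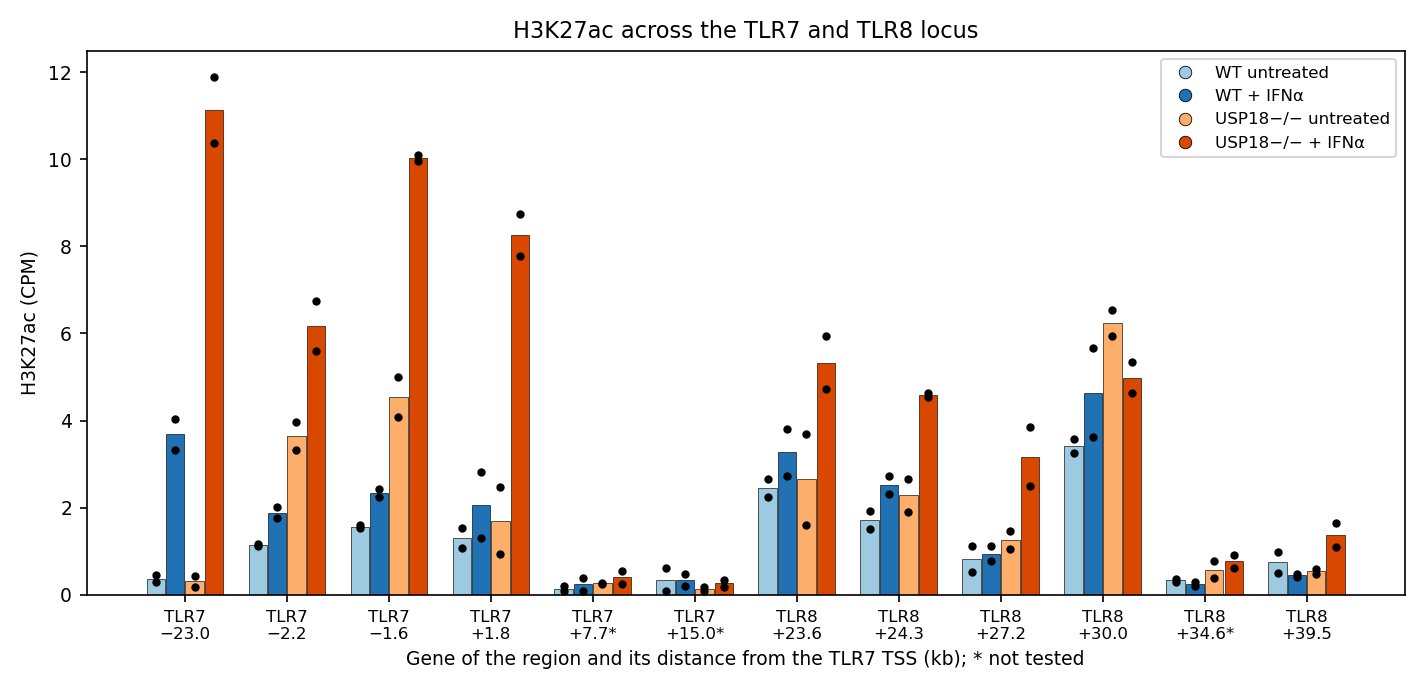
H3K27ac in CPM at the 12 regions of TLR7 and TLR8, ordered by distance from the TLR7 TSS in kb, with bars at the means of the 2 libraries of each group and a point for each library. The IFNα-treated USP18−/− bars reach 11.1, 6.18, 10.0 and 8.26 CPM over the first 4 regions, above all other groups, and the untreated USP18−/− bar is the tallest only at TLR8 −9491.

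TLR9, the endosomal receptor for unmethylated CpG DNA, went the other way at its promoter. TLR9 +50 (chr3:52225613-52226613) covers the start of the gene and held 6.52 and 6.36 CPM in untreated WT cells, 4.79 and 5.56 CPM in IFNα-treated WT cells, 4.39 and 4.37 CPM in untreated USP18−/− cells and 1.66 and 3.15 CPM in IFNα-treated USP18−/− cells. No groups overlapped, with untreated WT cells highest and IFNα-treated USP18−/− cells lowest. Under IFNα it was lower in USP18−/− cells, at −1.11 ± 0.27 (SE, adjusted p = 4.39e-04), a call that was lost without USP18−/− IFNα replicate 1 (−0.75, adjusted p = 0.0539).

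IFNα in USP18−/− cells lowered TLR9 +50 by less than 2-fold, at −0.87 ± 0.28 (SE, adjusted p = 0.0122). Leaving out single libraries moved it from −0.50 (adjusted p = 0.319), without USP18−/− IFNα replicate 1, to a called −1.39 (adjusted p = 0.00197), without replicate 2 of that group, and it was also called with the plain sum of counts (adjusted p = 0.00315). TLR9 +482, which overlaps it, had −1.2 ± 0.28 (SE, adjusted p = 2.12e-04) between the genotypes under IFNα. TLR9 −398, a promoter window that overlaps both, did not pass. It had −0.60 ± 0.29 (SE, adjusted p = 0.0927) between the genotypes under IFNα and −0.24 ± 0.30 (SE, adjusted p = 0.660) for IFNα in USP18−/− cells. TLR9 −5556, which lies within TWF2, the gene of an actin-binding protein, was higher in USP18−/− cells under IFNα by 1.57 ± 0.47 (SE, adjusted p = 0.00434), at levels of 0.607 to 2.41 CPM. TLR9 +5570, with the ISRE letters shown above, had −0.09 (95% interval −0.71 to 0.54, adjusted p = 0.900) for IFNα in USP18−/− cells. TLR3 could not be compared at these depths, though TLR3 −960 holds the letters GAAAACGAAA.

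TLR2, TLR1, TLR6 and TLR10 form the group of lipoprotein receptors and their partners, and no region nearest the TSS of these 4 genes was called in any comparison. TLR2 −39 (chr4:153683713-153684713) held 24.4 and 22.6 CPM in untreated WT cells, 18.7 and 20.3 CPM in IFNα-treated WT cells, 22.1 and 25.3 CPM in untreated USP18−/− cells and 26.4 and 24.2 CPM in IFNα-treated USP18−/− cells. IFNα gave −0.26 (95% interval −0.52 to −0.00, adjusted p = 0.555) in WT cells and 0.10 (95% interval −0.15 to 0.34, adjusted p = 0.669) in USP18−/− cells, and under IFNα the genotypes differed by 0.38 ± 0.13 (SE, adjusted p = 0.0138). The neighbouring TLR2 +532, with the highest level of the gene, had 30.9 and 25.9 CPM in untreated WT cells, 24.3 and 26.3 CPM in IFNα-treated WT cells, 27.7 and 28 CPM in untreated USP18−/− cells and 36.8 and 32.7 CPM in IFNα-treated USP18−/− cells. Its IFNα-treated USP18−/− libraries were the highest of the 8, and the IFNα effects differed between the genotypes by 0.48 ± 0.17 (SE, adjusted p = 0.0453), under 2-fold, with an adjusted p of 0.0515 to 0.33 in 9 of 13 alternatives.

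Away from its promoter, TLR2 had regions that fell and one that rose. TLR2 −17871 (chr4:153665881-153666881), in an intron of a non-coding transcript upstream, held 10.8 and 11.4 CPM in untreated WT cells, 10.8 and 10.5 CPM in IFNα-treated WT cells, 5.42 and 5.41 CPM in untreated USP18−/− cells and 2.89 and 5.37 CPM in IFNα-treated USP18−/− cells. All 4 USP18−/− libraries were below all 4 WT libraries, with −1.03 ± 0.20 (SE, adjusted p = 1.50e-05) in untreated cells and −1.38 ± 0.21 (SE, adjusted p = 4.89e-08) under IFNα. The untreated call was lost without WT untreated replicate 2 (just under 2-fold). The 3 overlapping windows at the 3′ end of TLR2 were lower in USP18−/− cells as well, at −0.86 to −0.98 in untreated cells and −0.77 to −1.07 under IFNα on the log2 scale, each at an adjusted p under 0.05.

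TLR2 −7038, in the same upstream intron, rose instead. Its levels were 3.36 and 2.86 CPM in untreated WT cells, 3.61 and 2.93 CPM in IFNα-treated WT cells, 4.22 and 4.56 CPM in untreated USP18−/− cells and 9.79 and 7.31 CPM in IFNα-treated USP18−/− cells. Both IFNα-treated USP18−/− libraries were above the other 6. Under IFNα the genotypes differed by 1.38 ± 0.24 (SE, adjusted p = 5.40e-07), and IFNα in USP18−/− cells gave 0.97 ± 0.22 (SE, adjusted p = 2.62e-04). Near its centre it holds GGGGAATTCC, a match to the NF-κB letters, at −109, and 2 matches to the AP-1 letters TGANTCA at 49 and 61 bp. Of all windows, 13.7% hold NF-κB letters and 31.1% AP-1 letters.

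TLR1, a partner of TLR2, had no region called in any comparison. TLR1 −97 held 4.18 and 4.39 CPM in untreated WT cells, 3.42 and 5.16 CPM in IFNα-treated WT cells, 5.42 and 4.56 CPM in untreated USP18−/− cells and 6.82 and 6.38 CPM in IFNα-treated USP18−/− cells, with the IFNα-treated USP18−/− libraries highest, and the genotypes differed under IFNα by 0.63 ± 0.23 (SE, adjusted p = 0.0235). TLR1 −888, which holds the ISRE letters shown above, rose by 0.56 ± 0.20 (SE, adjusted p = 0.0256) under IFNα in USP18−/− cells, and under IFNα it was 0.87 ± 0.21 (SE, adjusted p = 2.93e-04) higher in USP18−/− than in WT cells. TLR1 −11288, the highest of the gene, held 7.03 and 9.31 CPM in untreated WT cells, 9.57 and 8.90 CPM in IFNα-treated WT cells, 15.2 and 14.8 CPM in untreated USP18−/− cells and 13.1 and 11.1 CPM in IFNα-treated USP18−/− cells. All 4 USP18−/− libraries were above all 4 WT libraries there, by 0.87 ± 0.17 (SE, adjusted p = 1.87e-05) in untreated cells, which passed 2-fold, at 1.09 (adjusted p = 1.17e-04), without WT untreated replicate 2.

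TLR6, the other partner of TLR2, had the window with the highest H3K27ac of the family and no region that passed the test in any comparison. TLR6 −1238 (chr4:38857555-38858555) held 50.6 and 51.2 CPM in untreated WT cells, 48.5 and 48.1 CPM in IFNα-treated WT cells, 56.9 and 49.7 CPM in untreated USP18−/− cells and 40.7 and 50.0 CPM in IFNα-treated USP18−/− cells. The 8 libraries of the 4 groups lay between 40.7 and 56.9 CPM. For IFNα in USP18−/− cells the value was −0.24 (95% interval −0.44 to −0.04, adjusted p = 0.0818), and for USP18 loss under IFNα −0.09 (95% interval −0.30 to 0.11, adjusted p = 0.511). In the GENCODE annotation TLR1 and TLR6 share a start site at position 38856817 of chromosome 4, which this window lies upstream of.

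TLR10, which pairs with TLR2 and is known to dampen signalling, was low at its start site and higher at some regions upstream and downstream. TLR10 −38 held 0.815 and 1.25 CPM in untreated WT cells, 1.56 and 1.92 CPM in IFNα-treated WT cells, 1.20 and 1.52 CPM in untreated USP18−/− cells and 1.40 and 0.740 CPM in IFNα-treated USP18−/− cells, with the IFNα-treated WT libraries highest. TLR10 +21231, its highest region, stayed between 18 and 23.6 CPM, with 0.05 (95% interval −0.20 to 0.31, adjusted p = 0.842) for IFNα in USP18−/− cells. Neither region had an adjusted p under 0.05 in any of the 5 comparisons. TLR10 −3199, upstream, had a mean of 7.37 CPM over all libraries and passed with changes under 2-fold. It had −0.60 ± 0.22 (SE, adjusted p = 0.0274) for USP18 loss in untreated cells and 0.64 ± 0.22 (SE, adjusted p = 0.0234) for IFNα in USP18−/− cells. The untreated and IFNα-treated USP18−/− libraries overlapped there.

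Farther regions of TLR10 did change. TLR10 +30526 (chr4:38751964-38752964, intergenic) held 1.53 and 1.61 CPM in untreated WT cells, 1.76 and 2.23 CPM in IFNα-treated WT cells, 0.861 and 2.66 CPM in untreated USP18−/− cells and 4.55 and 4.53 CPM in IFNα-treated USP18−/− cells. Both IFNα-treated USP18−/− libraries were above the other 6, and the untreated USP18−/− libraries lay on either side of both WT groups. IFNα in USP18−/− cells gave 1.39 ± 0.32 (SE, adjusted p = 2.68e-04), which was 0.75 (adjusted p = 0.13) without USP18−/− untreated replicate 1 and 2.38 without replicate 2 of that group. The 374 tested regions within 5 Mb had a median of 0.16 for the same comparison. TLR10 +13666 held 1.32 and 1.25 CPM in untreated WT cells, 1.56 and 1.52 CPM in IFNα-treated WT cells, 3.44 and 2.37 CPM in untreated USP18−/− cells and 2.10 and 1.48 CPM in IFNα-treated USP18−/− cells. The untreated USP18−/− libraries were highest, 1.18 ± 0.36 (SE, adjusted p = 0.00624) above WT, a call that was lost without WT untreated replicate 2 (adjusted p = 0.0594), without USP18−/− untreated replicate 1 (adjusted p = 0.15) and with DESeq2 (adjusted p = 0.064).

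TLR4, the receptor for lipopolysaccharide, lost H3K27ac at a single downstream region and passed no test at its promoter. TLR4 +21597 lies past the end of TLR4, within a read-through gene model. It held 20.4 and 22.5 CPM in untreated WT cells, 19.9 and 18.3 CPM in IFNα-treated WT cells, 11.4 and 9.49 CPM in untreated USP18−/− cells and 4.98 and 3.98 CPM in IFNα-treated USP18−/− cells. No groups overlapped, and all 4 USP18−/− libraries were below all 4 WT libraries. The genotypes differed by −1.04 ± 0.15 (SE, adjusted p = 2.55e-08) in untreated cells and by −2.09 ± 0.18 (SE, adjusted p = 1.03e-17) under IFNα.

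IFNα gave −1.22 ± 0.19 (SE, adjusted p = 2.26e-07) at TLR4 +21597 in USP18−/− cells and −0.17 ± 0.14 (SE, adjusted p = 0.807) in WT cells. The difference, −1.05 ± 0.24 (SE, adjusted p = 7.94e-04), stayed at an adjusted p under 0.05 in every alternative but slipped under 2-fold without WT untreated replicate 1, WT IFNα replicate 1, USP18−/− untreated replicate 1 or USP18−/− IFNα replicate 2 (−0.90 to −0.99). The untreated call likewise slipped under 2-fold without WT untreated replicate 2 or USP18−/− untreated replicate 2 (−0.97 and −0.92).

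The promoter region TLR4 +118 (chr9:117703793-117704793) held 7.44 and 7.61 CPM in untreated WT cells, 8.40 and 7.28 CPM in IFNα-treated WT cells, 6.89 and 4.37 CPM in untreated USP18−/− cells and 7.70 and 6.75 CPM in IFNα-treated USP18−/− cells. The untreated USP18−/− libraries were the lowest on average, and the difference from WT was −0.41 (95% interval −0.82 to 0.01, adjusted p = 0.136). TLR4 +14093, at the 3′ end of the gene, held 22.8 and 17.5 CPM in untreated WT cells, 17.2 and 21 CPM in IFNα-treated WT cells, 16.1 and 15.7 CPM in untreated USP18−/− cells and 14.3 and 16.1 CPM in IFNα-treated USP18−/− cells. Its USP18−/− libraries lay below its WT libraries, at −0.33 (95% interval −0.62 to −0.04, adjusted p = 0.0655) under IFNα, which did not pass. The summed level of the 7 TLR4 regions was 53.9 and 51.6 CPM in untreated and 49.1 and 49.6 CPM in IFNα-treated WT cells, and 36.9 and 32.3 CPM in untreated and 29.5 and 29.2 CPM in IFNα-treated USP18−/− cells. Within 5 Mb of TLR4 the median over 373 tested regions was 0.26 between the genotypes under IFNα, opposite in sign to TLR4 +21597.

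TLR5, the receptor for flagellin, had 3 upstream regions called lower in USP18−/− than in WT cells under IFNα. Other upstream regions did not pass in this comparison. TLR5 −46966 had 0.89 (adjusted p = 0.141), TLR5 −45627 −0.99 (adjusted p = 0.182) and TLR5 −32531 −0.28 (adjusted p = 0.527). TLR5 −34664 (chr1:223177446-223178446, intergenic) held 7.44 and 7.16 CPM in untreated WT cells, 6.64 and 6.27 CPM in IFNα-treated WT cells, 5.68 and 5.98 CPM in untreated USP18−/− cells and 3.06 and 1.94 CPM in IFNα-treated USP18−/− cells. No groups overlapped, and the IFNα-treated USP18−/− libraries were the lowest. IFNα lowered it in USP18−/− cells, at −1.21 ± 0.26 (SE, adjusted p = 8.36e-05), where WT cells had −0.18 ± 0.21 (SE, adjusted p = 0.882). The fall was less than 2-fold (−0.92) without USP18−/− IFNα replicate 2.

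The difference between these effects at TLR5 −34664 was −1.03 ± 0.33 (SE, adjusted p = 0.0268), and it did not pass in 6 of the 8 fits that left out a library or with DESeq2, where adjusted p ran from 0.0527 to 0.221. TLR5 −37726 (chr1:223180508-223181508), which holds the start of a non-coding gene model, had 9.17 and 6.27 CPM in untreated WT cells, 7.13 and 6.78 CPM in IFNα-treated WT cells, 4.73 and 4.46 CPM in untreated USP18−/− cells and 2.54 and 2.22 CPM in IFNα-treated USP18−/− cells. All 4 USP18−/− libraries were below all 4 WT libraries, at −1.54 ± 0.26 (SE, adjusted p = 3.00e-07) under IFNα. Each of these 2 windows has the PU.1 letters GAGGAAGT, at 17 and 47 bp from the centre, where 11% of all windows hold them.

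TLR5 −10260, the highest region of the gene, held 8.86 and 8.06 CPM in untreated WT cells, 11.8 and 13.9 CPM in IFNα-treated WT cells, 5.68 and 4.18 CPM in untreated USP18−/− cells and 5.33 and 5.09 CPM in IFNα-treated USP18−/− cells. IFNα-treated WT cells were highest, and the USP18−/− groups overlapped each other below all WT libraries. The genotypes differed by −1.30 ± 0.20 (SE, adjusted p = 2.20e-08) under IFNα, and in WT cells IFNα gave 0.60 ± 0.18 (SE, adjusted p = 0.111). Within 5 Mb the 716 tested regions had a median of −0.19 between the genotypes under IFNα, and the part of this shift in the falls of TLR5 was not tested. At the start site, TLR5 −2 held 6.01 and 6.09 CPM in untreated WT cells, 6.64 and 7.28 CPM in IFNα-treated WT cells, 4.99 and 7.21 CPM in untreated USP18−/− cells and 6.30 and 5.27 CPM in IFNα-treated USP18−/− cells, with overlapping groups and −0.26 (95% interval −0.69 to 0.16, adjusted p = 0.361) between the genotypes under IFNα. TLR5 −636, a promoter window that overlaps it, was lower in USP18−/− cells under IFNα by less than 2-fold, at −0.60 ± 0.24 (SE, adjusted p = 0.0415). TLR5 −45627, with the ISRE letters shown above, fell under IFNα in USP18−/− cells, at −1.57 ± 0.54 (SE, adjusted p = 0.0217) and only 4.5 to 19 tags per library, and the call was lost without USP18−/− untreated replicate 1 or USP18−/− IFNα replicate 1 or 2 (adjusted p of 0.144, 0.132 and 0.0649).

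**Figure D4:**
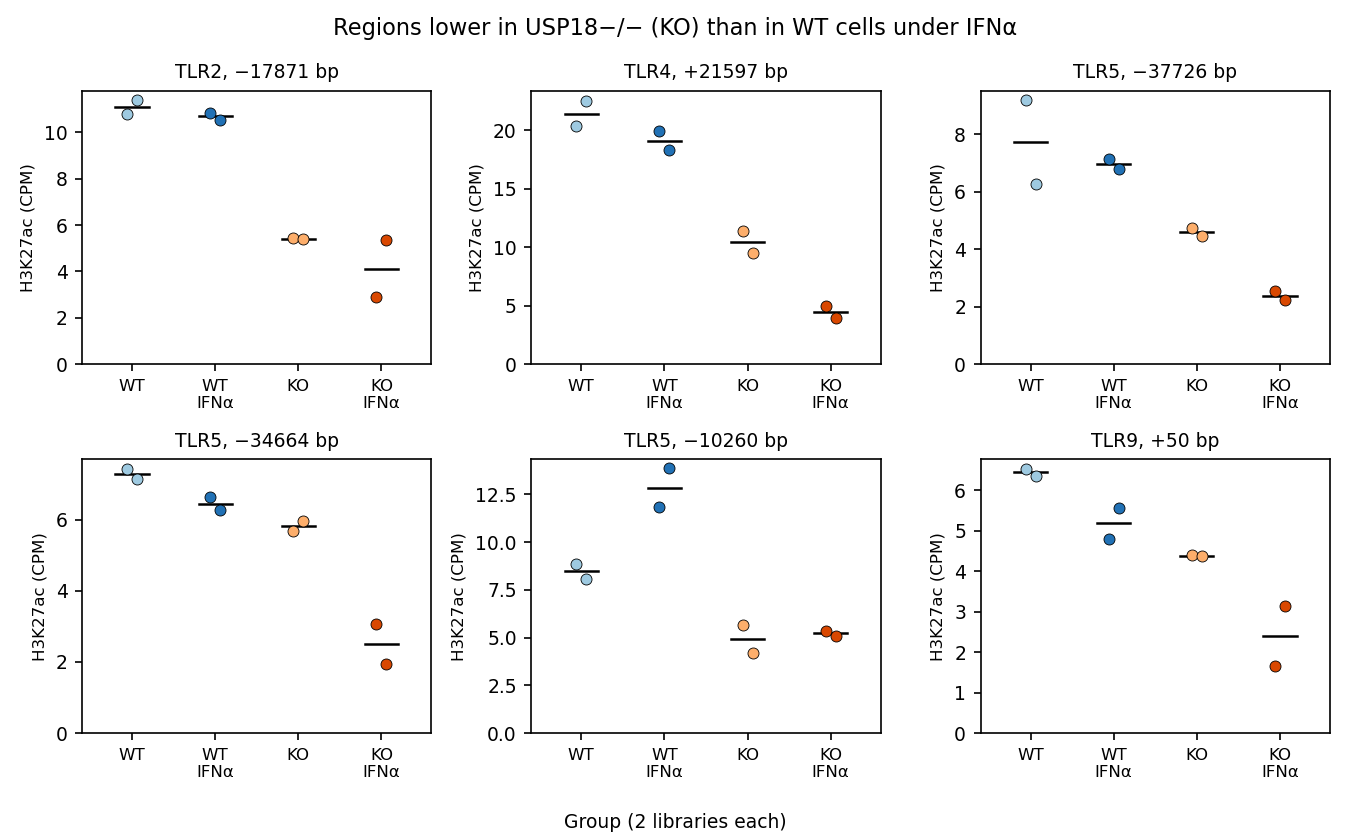
H3K27ac in CPM (axes from 0) at 6 TLR regions called lower in USP18−/− (KO) than in WT cells under IFNα, with 1 point per library and bars at group means. At TLR4 +21597 the 2 libraries of each group step down from 20.4 and 22.5 CPM to 4.98 and 3.98 CPM, and at TLR5 −10260 the IFNα-treated WT libraries stand highest at 11.8 and 13.9 CPM.

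The rest of the pathway was described by the promoters of 39 genes of TLR signalling, of which 36 had a tested region within 3000 bp of the TSS. Each gene was read at 1 region, the tested one nearest its TSS. The promoter background was all 28847 tested regions within 3000 bp of a TSS, so the 2 sets were not chosen alike. What this choice adds to the comparisons was not tested. None was called lower (by more than 2-fold) in any comparison, where the backgrounds were 0.0277% and 2.23% for IFNα in WT and USP18−/− cells, 4.45% and 5.82% for USP18 loss without and with IFNα and 1.47% for the difference. IFNα in WT cells raised 2 of the 36, where 0.458% of all tested promoter regions were called higher, and IFNα in USP18−/− cells raised 4, where the background was 4.63%. The 4 were MYD88, IRF7, IRAK2 and LY96, and the median of the list was 0.31, against 0.04 over all tested promoter regions.

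MYD88, the adaptor of most of these receptors, held 3.87 and 4.56 CPM in untreated WT cells, 8.11 and 10.3 CPM in IFNα-treated WT cells, 7.75 and 8.16 CPM in untreated USP18−/− cells and 39.4 and 35.3 CPM in IFNα-treated USP18−/− cells. The IFNα-treated USP18−/− libraries were far above the other 6, and the untreated USP18−/− libraries were level with the lower of the IFNα-treated WT libraries. IFNα gave 1.12 ± 0.20 (SE, adjusted p = 1.86e-04) in WT cells and 2.23 ± 0.15 (SE, adjusted p = 2.48e-23) in USP18−/− cells, and the effects differed by 1.11 ± 0.26 (SE, adjusted p = 0.00114). It was the 1 promoter of the 36 at which the IFNα effect was called larger in USP18−/− cells, where 3.26% of promoter regions were.

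IRF7, the transcription factor that endosomal receptors use to induce interferon, held 27.5 and 26.8 CPM in untreated WT cells, 64.3 and 64.0 CPM in IFNα-treated WT cells, 39.9 and 39.9 CPM in untreated USP18−/− cells and 132 and 141 CPM in IFNα-treated USP18−/− cells. No groups overlapped. IFNα gave 1.24 ± 0.10 (SE, adjusted p = 3.07e-17) in WT cells and 1.78 ± 0.09 (SE, adjusted p = 2.44e-30) in USP18−/− cells. LY96, the co-receptor of TLR4 for lipopolysaccharide, and the kinase IRAK2 rose by 1.01 ± 0.23 (SE, adjusted p = 2.64e-04) and 1.20 ± 0.32 (SE, adjusted p = 0.00196) in USP18−/− cells. UNC93B1, which carries the endosomal receptors to their compartment, rose by 0.94 ± 0.10 (SE, adjusted p = 1.98e-13), just under 2-fold. Falls of less than 2-fold passed the test as well. In untreated cells USP18 loss gave −0.92 ± 0.11 (SE, adjusted p = 6.58e-11) at the kinase TBK1, −0.66 ± 0.13 (SE, adjusted p = 3.96e-05) at the transcription factor IRF8 and −0.63 ± 0.18 (SE, adjusted p = 0.00272) at the kinase IRAK4, and these 3 were also lower under IFNα, where SIGIRR, an inhibitor of TLR signalling, joined them with −0.60 ± 0.18 (SE, adjusted p = 0.00561). IFNα in USP18−/− cells gave −0.73 ± 0.18 (SE, adjusted p = 8.95e-04) at SIGIRR.

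In USP18−/− cells 6 of the 36 promoters were called higher than in WT cells without IFNα, where the background was 7.28%, and 15 under IFNα, where it was 14.6%. The median of the list was 0.55 in untreated cells and 0.91 under IFNα, against 0.30 and 0.34 over all tested promoter regions, a set not limited to the region nearest each TSS. In untreated cells the largest rises were at the inhibitors CYLD, by 1.67 ± 0.21 (SE, adjusted p = 7.57e-11), and IRAK3, by 1.37 ± 0.11 (SE, adjusted p = 4.95e-19). Under IFNα they were at MYD88, by 2.02 ± 0.15 (SE, adjusted p = 2.90e-21), and CYLD, by 1.80 ± 0.18 (SE, adjusted p = 1.54e-14). By role, called promoters under IFNα were 2 of 6 co-receptors and accessory proteins, 3 of 4 adaptors, 2 of 13 kinases and ligases, 4 of 6 transcription factors and 4 of 7 inhibitors.

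**Figure D5:**
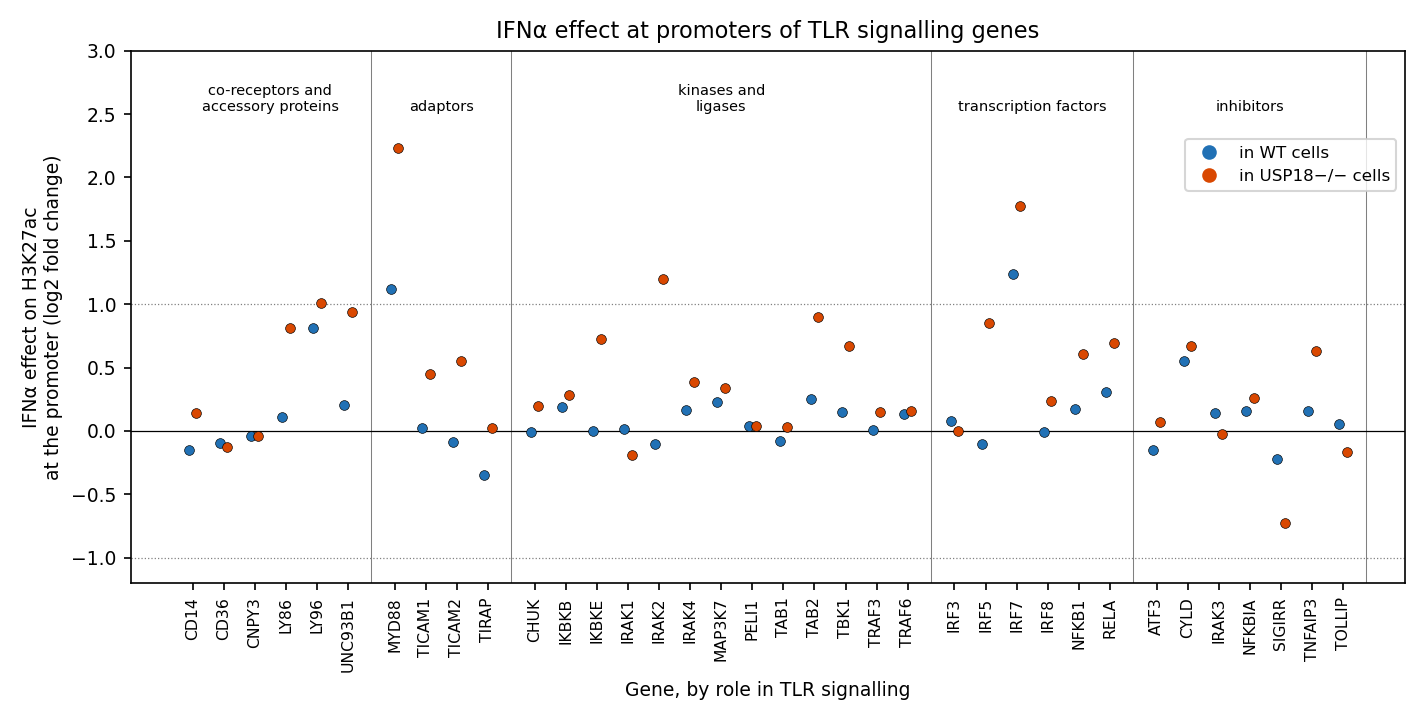
Log2 fold change of promoter H3K27ac under IFNα at the 36 tested genes of TLR signalling, by role, in WT cells (blue) and USP18−/− cells (orange), with dotted lines at changes of 2-fold. MYD88 and IRF7 stand highest at 1.12 and 1.24 in WT cells and 2.23 and 1.78 in USP18−/− cells, and most other points in WT cells lie near 0.

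Letters of transcription factor motifs were about as common in the TLR regions as elsewhere. On both strands, 10 of the 67 held ISRE letters (17.2% of all windows did), 8 held NF-κB letters (13.7%), GGG and TTCC around 3 bases of any kind, 10 held PU.1 letters GAGGAAGT (11%) and 23 held AP-1 letters TGANTCA (31.1%). Among the 7 tested regions with ISRE letters, IFNα in USP18−/− cells gave a rise at an adjusted p under 0.05 at TLR1 −888 and TLR8 −15945 and a fall at TLR5 −45627. That fall rested on few tags and was lost without certain single libraries. The remaining 4 did not pass, with values of −0.09 at TLR9 +5570, 0.57 at TLR10 +23291, 0.44 at TLR10 +38556 and 0.40 at TLR10 +38893, the last pair of windows overlapping. Promoter sequences listed by RefSeq for 7 of the 10 genes were identical to hg38 at the listed coordinates.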

How the data were processed

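H3K27ac ChIP-seq of 8 THP-1 libraries was analysed, 2 for each of 4 groups taken from the sample labels. Per the labels and the study's methods, the authors aligned reads to hg38 with Bowtie2 and counted tags with HOMER, without normalization, over 1000 bp centred on peaks merged from ATAC-seq. The deposited tags come in steps of 0.5 and were handled as estimated counts, rounded to whole numbers. Columns of the authors' own DESeq2 comparisons (fold changes and p-values) were not used, and 0 value columns were left unmapped.

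The 123276 of 151654 regions where 2 or more libraries reached 10 counts were fitted with edgeR 4.0.16 in R 4.3.3, with TMM scaling (factors 0.882 to 1.09), 1 mean per group and all 8 libraries sharing the estimate of the spread (common biological coefficient of variation 0.0737). Quasi-likelihood tests were adjusted by the Benjamini-Hochberg method over all tested regions. Intervals are 1.96 SE on each side, and counting intervals cover counting error only. On simulated counts with 200 changed regions the same code was checked. Alternatives were DESeq2 1.42.0, other scaling, filters and sets of libraries. Gene models came from GENCODE, motif letters were searched in hg38, and figures were drawn with matplotlib 3.10.9.

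The receptors, the signalling list and the tests were chosen with earlier results of these data known. Regions named by rule were, for each gene, the tested region nearest the TSS, that with the highest mean CPM and the called ones (the 3 largest in each direction where over 6 were called), and for the signalling list the 2 largest changes. TLR1 −888, TLR2 −7038 and the windows at its 3′ end, TLR3 −960, TLR5 −46966, −32531 and −636, TLR8 −15945 and −15238, TLR9 −5556, −398, +482 and +5570, TLR10 −3199, the TLR10 regions with ISRE letters, LY96, IRAK2, UNC93B1, TBK1, IRF8, IRAK4 and SIGIRR were chosen after their values were seen.

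Some sequence is not reported here.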

Additional observations from a re-analysis of the deposited data

Results flagged for a closer look

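The effect of IFNα differed between USP18−/− and WT cells, by a test of the difference itself (the interaction contrast in edgeR, p-values adjusted over all tested regions), at 4 of the 57 tested TLR regions. The effect in USP18−/− cells was more positive (larger) at 2 of them and more negative (smaller) at 2. Of all tested regions, 6.84% had a larger and 5.22% a smaller effect at this threshold. TLR7 +1804 had a difference of 1.60 on the log2 scale (adjusted p = 0.0243), with IFNα-treated USP18−/− cells at 8.75 and 7.77 CPM and the other 6 libraries between 0.947 and 2.83 CPM. TLR4 +21597 had −1.05 (adjusted p = 7.94e-04), with a fall in USP18−/− cells from 11.4 and 9.49 CPM to 4.98 and 3.98 CPM. TLR5 −34664 had −1.03 (adjusted p = 0.0268), with 1.94 to 3.06 CPM in IFNα-treated USP18−/− cells against 5.68 to 7.44 CPM in the other 6 libraries. TLR2 +532, next to the promoter, had 0.48 (adjusted p = 0.0453), less than 2-fold. Across 13 alternatives the adjusted p stayed under 0.05 at TLR4 +21597 (1.02e-04 to 0.0163). It was not under 0.05 in 5 of them at TLR7 +1804 (up to 0.251), in 7 at TLR5 −34664 (up to 0.221) and in 9 at TLR2 +532 (up to 0.33).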

How the results depend on the processing

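Counts of called regions depended on scaling, distance, tool and single libraries. With the plain sum of counts, USP18 loss in untreated cells lowered 5 regions and IFNα in USP18−/− cells lowered 5. With DESeq2, the IFNα effects differed at 0 regions in the upward and 1 in the downward direction. Among the 26 tested regions within 10000 bp of the TSS, IFNα raised 0 in WT cells and 2 in USP18−/− cells, and lowered 0 in USP18−/− cells. Its effect was smaller (more negative) in USP18−/− cells at 0 of them, and USP18 loss lowered 0 in untreated cells and 2 under IFNα. Leaving out each library in turn gave, for IFNα in WT cells, 1 to 1 higher and 0 to 0 lower, for USP18 loss in untreated cells 3 to 3 higher and 2 to 5 lower, and for USP18 loss under IFNα 8 to 9 higher and 6 to 10 lower. For IFNα in USP18−/− cells it gave 4 to 8 higher (8 without USP18−/− IFNα replicate 2) and 2 to 3 lower. The difference between the IFNα effects gave 0 to 2 larger (0 without WT untreated replicate 1, WT IFNα replicate 2 or USP18−/− IFNα replicate 1) and 0 to 2 smaller (0 without WT untreated replicate 1, WT IFNα replicate 1 or USP18−/− IFNα replicate 2). The cause was not tested.

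Replicate numbers did not pair the libraries (correlations of deviations −0.003 to 0.0586 across groups). With the replicate block, calls were 1 higher and 0 lower for IFNα in WT cells, 3 and 2 for USP18 loss in untreated cells, 9 and 8 under IFNα, 7 and 3 for IFNα in USP18−/− cells and 1 and 2 for the difference. Of the named regions' values, 1045 of the leave-one-out values stayed on their side of the threshold, 30 lost and 5 gained a call. Under the other alternatives these numbers were 751, 6 and 2. No called value changed sign. Values that were not called counted as unchanged whatever their sign, and some changed sign, such as TLR1 −97 for IFNα in WT cells (−0.32 to 0.27 with single libraries left out). DESeq2 gave no adjusted p for 20 values, 2 of them called (TLR5 −45627 for IFNα in USP18−/− cells and TLR8 −27 for USP18 loss under IFNα). For all regions, the plain sum of counts moved the calls for USP18 loss from 6985 higher and 13291 lower to 4974 and 16879 in untreated cells and from 13897 and 16528 to 8789 and 24065 under IFNα. Calls for IFNα in USP18−/− cells moved from 8783 and 5303 to 7461 and 7882, and for the difference from 5740 and 3097 to 4677 and 4762, with the median at −0.12. Depth limits TLR3, whose regions held too few tags to be tested.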
